A study of Mus musculus with 2 samples.

Results

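Teneurins and latrophilins were examined as places of Foxf2 binding in the mouse palate. The members were 7 genes of 22359 protein-coding genes, namely the 4 teneurin genes Odz1, Odz2, Odz3 and Odz4 (names of the GENCODE vM1 annotation; now Tenm1 to Tenm4) and the 3 latrophilin genes Lphn1, Lphn2 and Lphn3 (now Adgrl1 to Adgrl3). A Foxf2 peak was counted for a gene when its centre lay inside the gene, or within 300 kb of an annotated transcription start site (TSS) of the gene with no other protein-coding TSS nearer. By this rule 42 of the 9165 peaks belonged to the 7 genes, 27 to teneurins and 15 to latrophilins. The genes were chosen by the number of peaks in this list, known beforehand, so their peak counts, tags and folds are given as a description, without a test.

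The study mapped binding of Foxf2, which belongs to the forkhead family of transcription factors, by chromatin immunoprecipitation and sequencing (ChIP-seq) with an antibody against FLAG. Both libraries came from palatal shelves of Foxf2FLAG/FLAG embryos at the embryonic stage E13.5, in which both copies of the endogenous gene carry a 3xFLAG tag made by CRISPR/Cas9 editing. Shelves of 50 pairs were pooled, and the data comprise 1 library after immunoprecipitation, with 26849463 tags, and 1 made without antibody from the same tagged shelves (input), whose depth by the scaling in the list was about 1.923e+07 tags. With 1 library of each kind no difference has a replicate check, and no ChIP of untagged shelves was analysed here. Whole shelves were used, so binding in few cells and weak binding in many cells cannot be told apart, and the tissue label could not be checked against marker expression in a peak list.

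Teneurins are large single-pass membrane proteins whose extracellular part includes a propeller and a barrel of YD repeats. They bind latrophilins, adhesion-class receptors coupled to G proteins, on the facing cell. The FLRT proteins bind the same receptors at another site and also bind Unc5 receptors, so the families form adhesion complexes best known for matching neurons at synapses. Forkhead factors bind DNA at GTAAACA and close variants. Here GTAAACA is called a forkhead sequence, as is ATAAACA, and so are the variants with a T as the last base but one, GTAAATA besides ATAAATA, all searched on both strands. A match describes the sequence and does not show that the factor sat on it. The centre of a peak is the midpoint of its listed region, which need not be where tags were most frequent.

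The sequences below are the central 200 bp of 8 of the peaks (mm9, plus strand, 5′ to 3′), with forkhead sequences in capitals. A match on the minus strand reads as its reverse complement, such as TGTTTAC for GTAAACA. Peaks are numbered along the strand of their gene. The first pair is the peak with the most ChIP tags of Odz4 and of Lphn2, each with GTAAACA.
Odz4-P2, chr7:103364419-103364618: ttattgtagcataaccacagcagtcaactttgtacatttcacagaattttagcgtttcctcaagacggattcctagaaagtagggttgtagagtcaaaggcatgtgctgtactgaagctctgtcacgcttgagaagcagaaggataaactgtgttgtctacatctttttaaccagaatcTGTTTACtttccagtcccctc
Lphn2-P1, chr3:148749666-148749865: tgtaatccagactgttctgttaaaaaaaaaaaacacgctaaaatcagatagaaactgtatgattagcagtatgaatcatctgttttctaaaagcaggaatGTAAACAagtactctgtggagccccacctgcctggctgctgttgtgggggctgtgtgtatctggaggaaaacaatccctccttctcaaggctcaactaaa
The next pair shows peaks of high tag number in Odz3 and Odz4 with none of the 4 sequences anywhere in the peak.
Odz3-P5, chr8:49742670-49742869: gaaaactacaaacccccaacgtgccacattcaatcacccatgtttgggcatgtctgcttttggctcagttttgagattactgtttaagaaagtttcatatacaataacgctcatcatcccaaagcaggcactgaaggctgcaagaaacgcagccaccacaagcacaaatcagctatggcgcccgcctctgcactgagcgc
Odz4-P13, chr7:103946441-103946640: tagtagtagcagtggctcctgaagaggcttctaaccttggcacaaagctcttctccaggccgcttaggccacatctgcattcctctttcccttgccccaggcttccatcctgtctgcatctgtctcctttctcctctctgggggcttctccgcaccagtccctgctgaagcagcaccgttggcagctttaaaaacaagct
The last 4 come from peaks of low tag number with 2 or more forkhead sequences at the centre, among them a repeated ATAAACA in Odz1 and 2 overlapping GTAAATA on opposite strands in Odz4.
Odz1-P1, chrX:40150384-40150583: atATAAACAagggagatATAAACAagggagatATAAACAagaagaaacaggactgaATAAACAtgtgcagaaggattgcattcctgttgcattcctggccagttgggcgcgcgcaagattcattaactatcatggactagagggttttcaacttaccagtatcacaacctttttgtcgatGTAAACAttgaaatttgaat
Odz2-P2, chr11:36091004-36091203: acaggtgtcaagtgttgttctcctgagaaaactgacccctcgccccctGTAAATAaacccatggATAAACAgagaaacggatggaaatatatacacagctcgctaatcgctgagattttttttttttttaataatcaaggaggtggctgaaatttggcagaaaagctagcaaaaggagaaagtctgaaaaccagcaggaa
Odz4-P6, chr7:103694601-103694800: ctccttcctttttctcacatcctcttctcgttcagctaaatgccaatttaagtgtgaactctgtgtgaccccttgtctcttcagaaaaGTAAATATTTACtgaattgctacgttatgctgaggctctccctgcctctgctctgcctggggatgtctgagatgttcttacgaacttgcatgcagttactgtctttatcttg
Lphn3-P4, chr5:81798916-81799115: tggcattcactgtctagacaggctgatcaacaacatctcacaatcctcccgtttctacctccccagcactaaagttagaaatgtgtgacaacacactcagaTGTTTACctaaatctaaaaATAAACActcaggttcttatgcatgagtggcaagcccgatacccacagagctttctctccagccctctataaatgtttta

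Odz4 had 13 peaks, the most of the 7 genes, and they formed groups along its length. Of all protein-coding genes, 25.4% had at least 1 peak by the rule, 8.19% at least 2, 0.971% at least 5 and 0.0671% (15 genes) at least 10; among the 7 members 6, 6, 4 and 3 did. The gene covers chr7:103319754-104059603 on the plus strand and is 740 kb long, with 5 annotated starts. Its 13 peaks held 17 to 197 ChIP tags (median 46), 12 lay inside the gene, and each of those 12 was intronic. The other, Odz4-P1, lay 91.6 kb upstream with 17 tags against 1.

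The peak with the most tags at Odz4 was Odz4-P2, in intron 1 at chr7:103364075-103364961, 4.34 kb downstream of an alternative start. Its 197 ChIP tags stood against 12 in input, 11.8-fold after scaling in the authors' list (exact 95% interval 6.58 to 23.1, counting error only). By ChIP tags it ranked 89 of 9165 peaks. Farther along intron 1, Odz4-P3, Odz4-P4 and Odz4-P5 had 31, 75 and 66 ChIP tags against 1, 5 and 4 input tags. These 3 lay within 38.7 kb of sequence, 55.6 to 93.9 kb from the nearest Odz4 start. All 3 were above the median of 30 tags over the whole peak list.

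A second group of 5 peaks lay in introns 13 to 17, far from any start of the gene. Odz4-P9 to Odz4-P13 spanned 57.7 kb (chr7:103889188-103946863) and had 66, 52, 42, 46 and 90 ChIP tags against 4, 3, 2, 2 and 5 input tags. Together they held 296 ChIP tags and 16 input tags, a 13.3-fold excess (exact 95% interval 8.02 to 23.5), while the first 4 peaks inside the gene held 369 against 22 (12.01-fold, 7.82 to 19.4). The intervals of these groups overlapped. The groups were drawn from where the peaks fell, and every listed peak had to reach a 10-fold excess. Nothing is therefore read from the likeness of these 2 folds. For all 5 peaks the nearest protein-coding TSS was that of Nars2, an asparaginyl-tRNA synthetase gene, at 153 to 211 kb, against 219 to 276 kb to the nearest start of Odz4. None of the 5 had a forkhead sequence in its central 200 bp, and Odz4-P10, Odz4-P11 and Odz4-P12 had 1 each nearer the peak edge. Between the groups, Odz4-P6, Odz4-P7 and Odz4-P8 had 21, 18 and 19 tags against 1 input tag each, below the median of the list.

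Odz3 had 10 peaks, and all of them had an Odz3 start as the nearest TSS. The gene lies at chr8:49313036-49760044 on the minus strand, is 447 kb long and has 7 annotated starts. Its peaks held 17 to 213 ChIP tags (median 43.5); 6 lay inside the gene and 4 upstream of it.

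Odz3-P9, with the most ChIP tags of the 42 peaks, lay at an internal promoter of Odz3. It covered chr8:49640275-49641171, and its centre was 324 bp downstream of an alternative start, in a 5′ untranslated exon (49640507-49641047) of a shorter transcript. The peak held 213 ChIP tags and 8 from input, 19.1-fold after scaling (exact 95% interval 9.50 to 44.7), and ranked 60 of 9165 peaks by tags. Its central 200 bp had a GC content of 72.5%, against a median of 43% over the 42 peaks, and held GTAAACA once. Odz3-P10, 3.99 kb away, had 40 tags against 2 and a GC content of 27.5%, the lowest of the 42. Odz3-P8, on the other side, had 19 tags against 1.

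In introns 1 and 2 of the long transcript, Odz3-P5 stood out by its score. It lay at chr8:49742456-49743082, 17.3 kb downstream of the first start, with 122 ChIP tags against 5 (17.5-fold, exact 95% interval 7.29 to 54.8). Its peak caller's score of 121 was the highest of the 42 and ranked 69 in the list. Odz3-P6 and Odz3-P7 followed at 47 tags against 3 and 36 against 2. Upstream of the gene, Odz3-P4 (69 tags against 3) and Odz3-P3 (115 against 7) lay 90.6 and 120 kb from the first start. Odz3-P3 was the widest of the 42 peaks, at 1410 bp (chr8:49879541-49880951), with 6 forkhead sequences, of which 1 was central. Odz3-P2 and Odz3-P1 had 18 tags against 1 and 17 against 0. Peaks of high and low tag number thus lay on both sides of the first start.

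**Figure D1:**
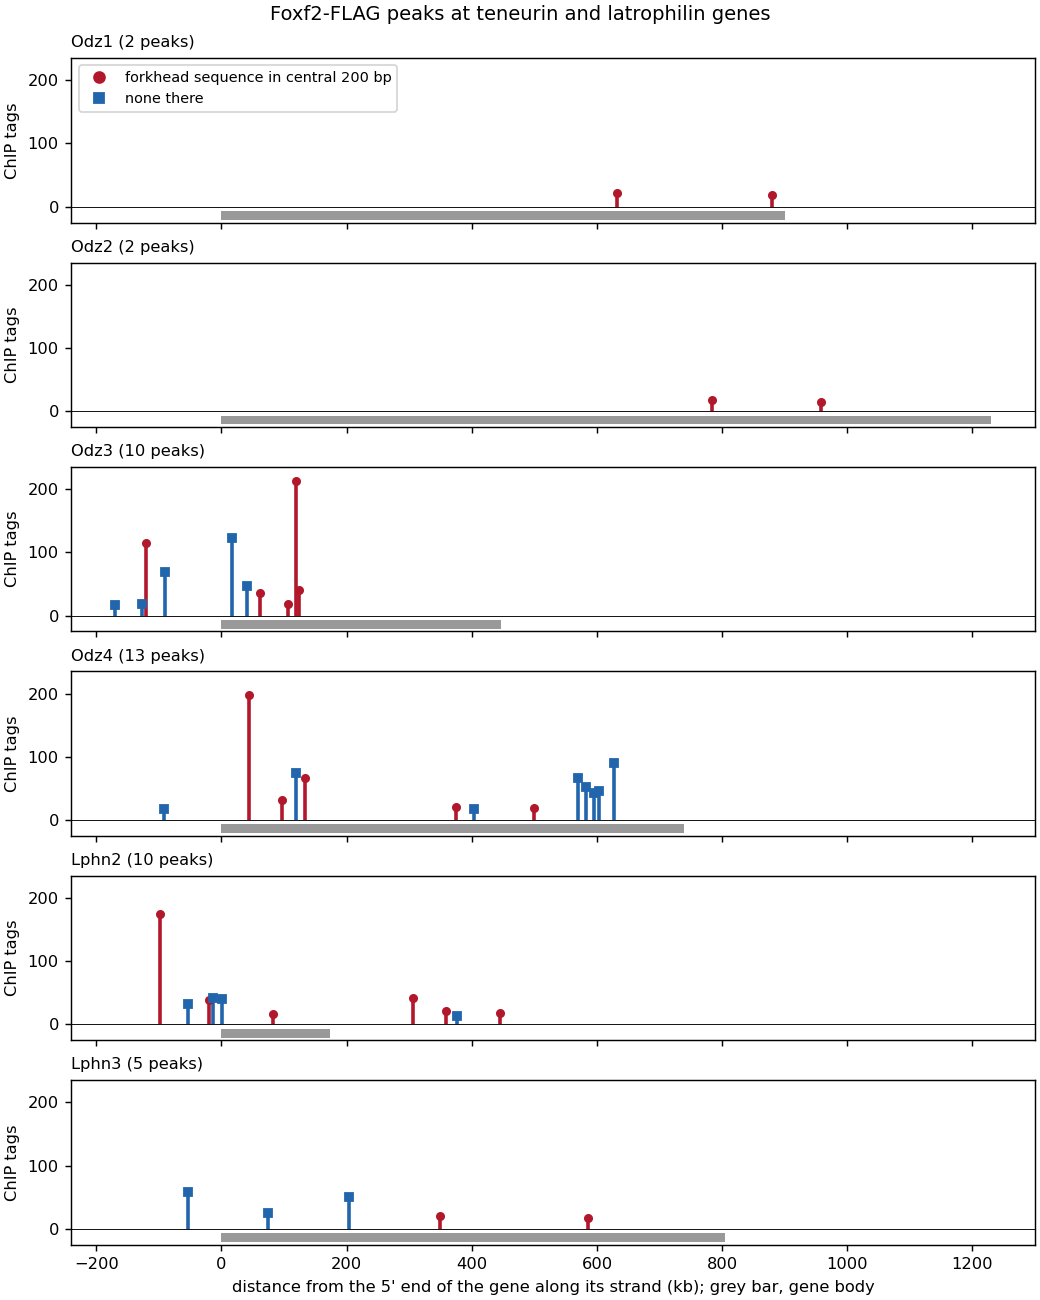
ChIP tags of each peak (vertical axis) against its distance in kb from the 5′ end of the gene along the gene's strand, for the 6 genes with a peak; grey bars are gene bodies, red circles mark peaks with a forkhead sequence in the central 200 bp and blue squares peaks with none there. Odz3, Odz4 and Lphn2 each have a peak above 170 tags, Odz1 and Odz2 have none above 21, and the 5 peaks in the 3′ part of Odz4 are all blue.

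Odz1 and Odz2 had 2 peaks each, all weak and deep inside the genes. Odz1 (chrX:39881043-40782303, minus strand, 901 kb) had Odz1-P1 with 21 ChIP tags against 1 and Odz1-P2 with 18 against 1, 371 and 619 kb from the nearest Odz1 start. The nearest protein-coding TSS to both was that of Gm10483. Odz2 (chr11:35820158-37049466, minus strand, 1229 kb) had Odz2-P1 with 17 tags against 1 and Odz2-P2 with 15 against 1, with Wwc1 as the nearest TSS. Both Odz2 peaks had a score of 17, and the peak caller's Poisson threshold was 17 tags. The highest of these 4 peaks was below the median of all peaks. Odz1 lies on the X chromosome, which had 1.17 peaks per Mb against 3.63 on the autosomes, and the part of this in the Odz1 count was not tested. All 4 peaks held a forkhead sequence in the central 200 bp. In Odz1-P1 there were 5, and 3 of them were ATAAACA spaced 15 bp apart (starts at 40150386, 40150401 and 40150416).

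Of the receptors, Lphn2 had 10 peaks, around a gene 174 kb long (chr3:148478550-148652280, minus strand). With a limit of 100 kb, or with 1 start per gene, the count was 6. Each had a Lphn2 start as the nearest TSS, and 8 lay outside the gene, 4 on each side. ChIP tags ran from 14 to 174 with a median of 35.5.

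Lphn2-P1, 97.5 kb upstream of the first start at chr3:148749389-148750142, held 174 ChIP tags and 10 from input, 12.5-fold after scaling (exact 95% interval 6.62 to 26.4). Its score of 120 ranked 74 of 9165, and a GTAAACA lay 4 bp from its centre. No other Lphn2 peak had more than 42 tags. Toward the gene came Lphn2-P2, Lphn2-P3 and Lphn2-P4 with 33, 38 and 42 tags against 2, 2 and 3.

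Lphn2-P5 lay at the Lphn2 promoter, 520 bp downstream of the first start in the 5′ untranslated exon 148651554-148652280. It had 40 tags against 2, a 14.3-fold excess (exact 95% interval 3.71 to 122). With a GC content of 75.5%, the highest of the 42, it held no forkhead sequence anywhere in the peak. The only other member peak within 1 kb of a TSS was Odz3-P9, so 2 of 42 (4.76%) were promoter peaks, against 25.7% of the whole list. The single intragenic peak away from the promoter, Lphn2-P6 in intron 1, had 17 tags against 1. Downstream of the gene, Lphn2-P7 had 42 tags against 3, and Lphn2-P8, Lphn2-P9 and Lphn2-P10 had 21, 14 and 18 tags against 0, 0 and 1 at 192 to 278 kb. Lphn2-P9 had the fewest ChIP tags of the 42, and its score was 17.

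Lphn3 had 5 peaks, spread singly over a gene of 805 kb (chr5:81449163-82254158, plus strand). Lphn3-P1, 54.9 kb upstream of a start, had 59 ChIP tags against 3 input tags. The intronic peaks Lphn3-P2, Lphn3-P3, Lphn3-P4 and Lphn3-P5 had 25, 50, 20 and 17 tags against 1, 3, 1 and 1. The next peak in the list was at least 128.5 kb away from each of them, whereas the median distance to the next peak was 26.2 kb over the 42 peaks and 61.8 kb over the list. Lphn3-P1 had a 14.1-fold excess (exact 95% interval 4.59 to 70.3).

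Lphn1 had no peak by the rule. It is the shortest member, at 41.9 kb (chr8:86424004-86465853), with close neighbours. The peak nearest to an Lphn1 start, chr8:86308861-86309486, was 115 kb away with 110 ChIP tags against 7 and a score of 108, and was 43.9 kb from the TSS of Cd97, which encodes another adhesion-class receptor. The next was at the promoter of Rfx1, 129 kb from Lphn1.

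The limits of the rule left out some strong peaks. Just inside the limit of 300 kb, Lphn2-P10 (18 tags) lay 278 kb from its start. Just outside, a peak of 114 tags (score 55) lay 341 kb upstream of Odz3 with Odz3 still the nearest gene, and 3 peaks of 17, 68 and 16 tags lay 351 to 392 kb from Lphn3, also nearest. One peak of 17 tags beyond the 3′ end of Odz3 was 95.2 kb from an Odz3 start and 94.7 kb from the TSS of Dctd, and was not counted.

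All 42 peaks exceeded input by the authors' criterion of 10-fold, but tag number set how well each excess was known. The authors' fold ran from 10.03 (Lphn2-P4 and Lphn2-P7) to 30.1 (Lphn2-P8), with a median of 12.9, the same median as over the whole list. The highest folds belonged to peaks with 0 or 1 input tags. Lphn2-P8 rested on 21 ChIP tags against 0, where the interval has a lower bound of 3.73 and no upper bound. Of the 42 peaks, 14 (33.3%) had at most 20 ChIP tags, against 29% of the list. With tags summed by gene, the excess was 15.6-fold at Odz3 (696 tags against 32, exact 95% interval 10.9 to 22.96), 12.6-fold at Odz4 (740 against 42, 9.24 to 17.7) and 13.1-fold at Lphn2 (439 against 24, 8.69 to 20.7). It was 13.6-fold at Lphn3 (171 against 9, 7.003 to 30.3), 13.97-fold at Odz1 (39 against 2, 3.62 to 119) and 11.5-fold at Odz2 (32 against 2, 2.92 to 98.7). These intervals all overlapped. Every peak had to reach a 10-fold excess to be listed, which holds these ratios near that value, so nothing is read from their likeness between genes.

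**Figure D2:**
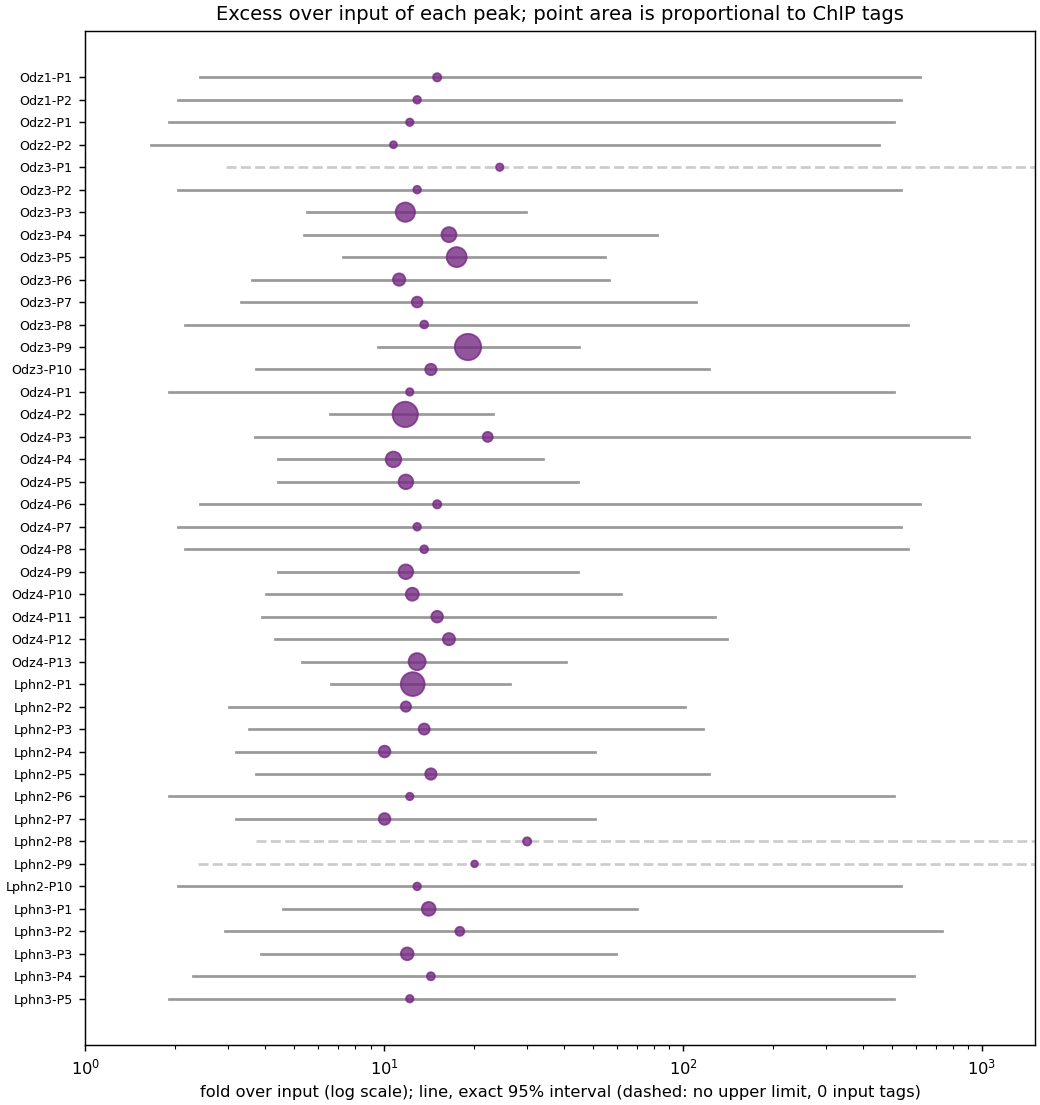
Fold over input of each of the 42 peaks in the authors' list (horizontal log axis), with the exact 95% interval from ChIP and input tags as a line and point area proportional to ChIP tags; dashed lines have no upper limit because input had 0 tags. The points lie between 10.03 and 30.1, and the intervals are narrowest for Odz4-P2, Lphn2-P1 and Odz3-P9.

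Forkhead sequences were at the centres of 22 of the 42 peaks (52.4%, Wilson 95% interval 37.7 to 66.6). Their windows of equal width 2000 bp upstream held one in 8 cases (19.05%, 9.98 to 33.3). Among all 6808 peaks more than 1 kb from a TSS the shares were 51.5% at the centre and 18.4% upstream, and the 40 member peaks that far from a TSS had 52.5% and 20%. Over the whole list, promoters included, 40.8% had one at the centre. The members' shares thus lay close to those of distal Foxf2 peaks in general. Peaks of teneurins (14 of 27) and latrophilins (8 of 15) had similar shares, and every member with a peak had at least 2 peaks with a central forkhead sequence. In the peak as a whole, 33 of 42 had a forkhead sequence.

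GTAAACA was the most frequent of the 4 sequences, at the centre of 13 peaks. That is 30.95% (Wilson 95% interval 19.1 to 46.03). Among the 40 member peaks more than 1 kb from a TSS it was 12 (30%, interval 18.1 to 45.4), and the 18.9% of all such peaks lay inside that interval. Of the 42 upstream windows 1 held it. Of 30 central matches in member peaks, 13 were GTAAACA, 11 ATAAACA, 3 GTAAATA and 3 ATAAATA. Over all distal peaks ATAAACA was the more frequent, at 41.7% of central matches against 28.02% for GTAAACA. The 13 central GTAAACA are shown with 7 bases on either side, on the strand that reads GTAAACA, so that their flanks can be compared.
Odz1-P1: tgtcgatGTAAACAttgaaat
Odz1-P2: ttcaactGTAAACAaaaatca
Odz3-P7: agagtgtGTAAACActttcta
Odz3-P9: gccgggtGTAAACAgagcagc
Odz4-P2: ctggaaaGTAAACAgattctg
Odz4-P5: gatgaacGTAAACAttgcaag
Odz4-P8: ttactgtGTAAACAcacacac
Lphn2-P1: caggaatGTAAACAagtactc
Lphn2-P6: aggttttGTAAACActaagta
Lphn2-P7: gaccaaaGTAAACAgaaagga
Lphn2-P8: tgtccgaGTAAACActgtgta
Lphn2-P10: aatccagGTAAACAacaaatt
Lphn3-P4: gatttagGTAAACAtctgagt
The base after GTAAACA varied between these sites. Of these 13, the one nearest to a centre was in Lphn2-P1, at 4 bp, and those of Lphn3-P4, Lphn2-P8, Lphn2-P10 and Lphn2-P7 lay 5, 28, 34 and 36 bp away. These 5 were all in latrophilin peaks. Of all 4 sequences the match nearest to a centre was a GTAAATA of Odz4-P6, at 3 bp.

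**Figure D3:**
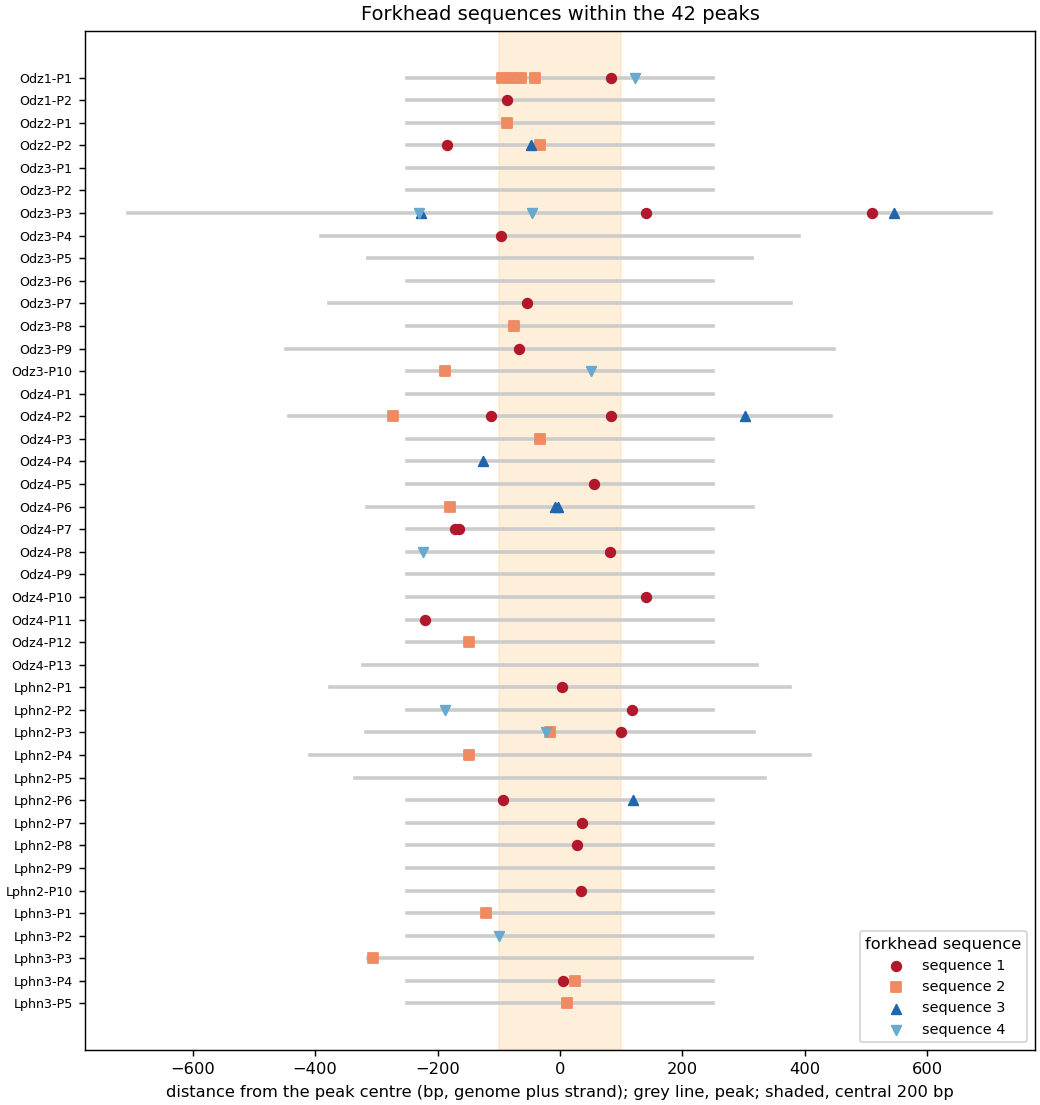
Forkhead sequences (symbols) by distance from the peak centre in bp for the 42 peaks (rows; grey lines show peak width, shading the central 200 bp); sequence 1 is GTAAACA, 2 is ATAAACA, 3 is GTAAATA and 4 is ATAAATA. Of 58 matches, 30 lie wholly inside the shaded window, and 9 peaks have no match. Symbols mark the middle of a match, so those of Odz3-P4, Lphn2-P3 and Lphn3-P2 cut by the window's edge show inside the shading but are not among the 30.

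In the member peaks, forkhead sequences were not concentrated in the peaks of high tag number. Of the 17 distal member peaks with over 40 ChIP tags, 5 (29.4%, Wilson 95% interval 13.3 to 53.1) had a central forkhead sequence, against 63.4% of the 2547 such peaks in the list. Of the 14 with at most 20 tags, 9 had one (64.3%, 38.8 to 83.7), against 39.1% of 2129. Of the 9 with 21 to 40 tags, 7 had one (77.8%, 45.3 to 93.7), against 49.7% of 2132. At the centre, the share rose with tag number over the whole list and was lowest in the bin with the most tags among the members. The 5 peaks in the 3′ part of Odz4 are all in that bin, and without them the share was 41.7% (5 of 12). In the whole peak instead of its centre, that order was not seen: 71.4% of member peaks with at most 20 tags, 100% of those with 21 to 40 and 76.5% of those with over 40 had a forkhead sequence. The list had 63.7%, 76.9% and 91.3%. The bins were chosen after member values were known, peaks of 1 gene are not independent, and no test was made.

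**Figure D4:**
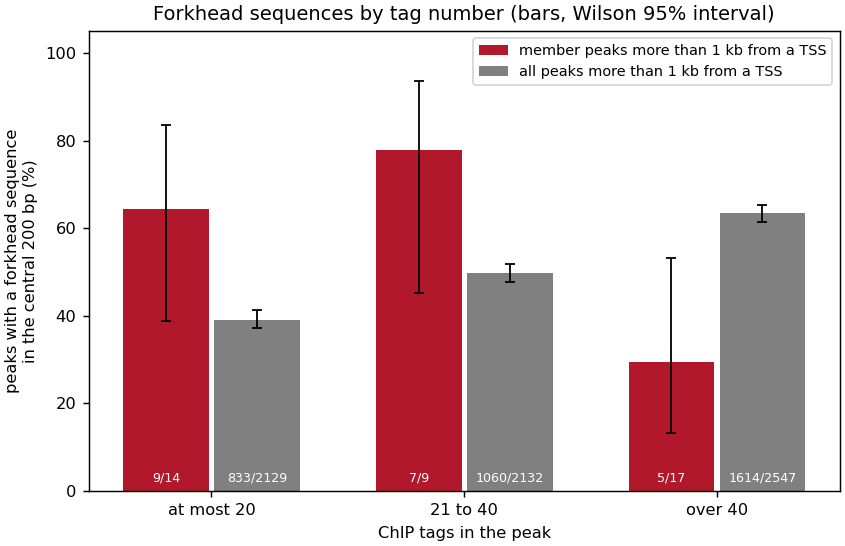
Percent of peaks more than 1 kb from a TSS with a forkhead sequence in the central 200 bp, by ChIP tags in the peak, for member peaks (red) and all peaks (grey); error bars are Wilson 95% intervals and the numbers in the bars are peaks with the sequence over peaks. The grey bars rise from 39.1% to 63.4%, and the red bar is lowest, at 29.4%, for over 40 tags.

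Sequences of other factors were searched in the same windows, on both strands. The E-box CATCTG, a site of basic helix-loop-helix factors, was at the centre of 10 of the 42 peaks and in 6 upstream windows, with 19.7% of distal peaks in the list holding it. It was in 7 of the 15 latrophilin peaks, 4 of them at Lphn3, and in 3 of the 27 teneurin peaks, while upstream windows held it in 0 and 6 cases. The TEAD sequence GGAATG was in 8 centres and 6 upstream windows (11.6% of distal peaks), the SOX sequences AACAAAG and AACAATG in 4 and 4 (13%) and the homeobox sequence TAATTA in 4 and 7 (7.34%). RUNX (TGTGGTT) was in 1 centre, that of Odz4-P2 (6.32% of distal peaks). The 4 forkhead sequences read backwards without complementing were in 8 centres and 10 upstream windows (24% of distal peaks). ATAAATA reads the same backwards, so its matches, in 3 centres and 10.8% of distal peaks, count in both searches. The backward search is therefore not a clean control of base composition. AACAAAG and AACAATG can share bases with a forkhead sequence, and such overlaps were kept. With 42 peaks these counts leave wide intervals, for example 13.48% to 38.5% (Wilson) for the E-box.

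The members with many peaks also own long stretches of sequence. The territory of a gene, here its body plus the sequence within 300 kb that is nearest to one of its starts, was 846 kb for Odz4, 770 kb for Odz3, 564 kb for Lphn2, 905 kb for Odz1, 1239 kb for Lphn3 and 1529 kb for Odz2. It was 126 kb for Lphn1, and the median over all protein-coding genes was 52.1 kb. Per Mb of territory there were 17.7 peaks at Lphn2, 15.4 at Odz4 and 12.995 at Odz3. Lphn3 had 4.04, Odz1 2.21, Odz2 1.31 and Lphn1 0, and the average over all genes was 3.88. Odz2 had the longest territory of the members and 2 peaks. The part of territory length in the peak counts was not tested.

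Genes with territories within 25% of a member's length give a scale for these counts. For Odz4 there were 169 such genes with a median of 2 peaks and at most 10. For Odz3 there were 325 with a median of 1, of which 6 had at least 10 peaks, and for Lphn2 710 with a median of 1, of which 5 had at least 10. At Odz1 and Odz2 the median of such genes was 2, the same as their own count. For Lphn3 there were 72 with a median of 1.5, of which 10 had at least 5 peaks. For Lphn1 there were 2674 with a median of 0, and 36.2% of them had at least 1 peak. The only 2 other genes with 13 peaks, as Odz4 had, were Zfp608 (602 kb) and Auts2 (1452 kb). Their territories were not within 25% of that of Odz4. Slit3 (731 kb) had 10 peaks, as Odz3 did, over a territory of similar length. These comparisons use the measure by which the genes were chosen and were not tested.

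**Figure D5:**
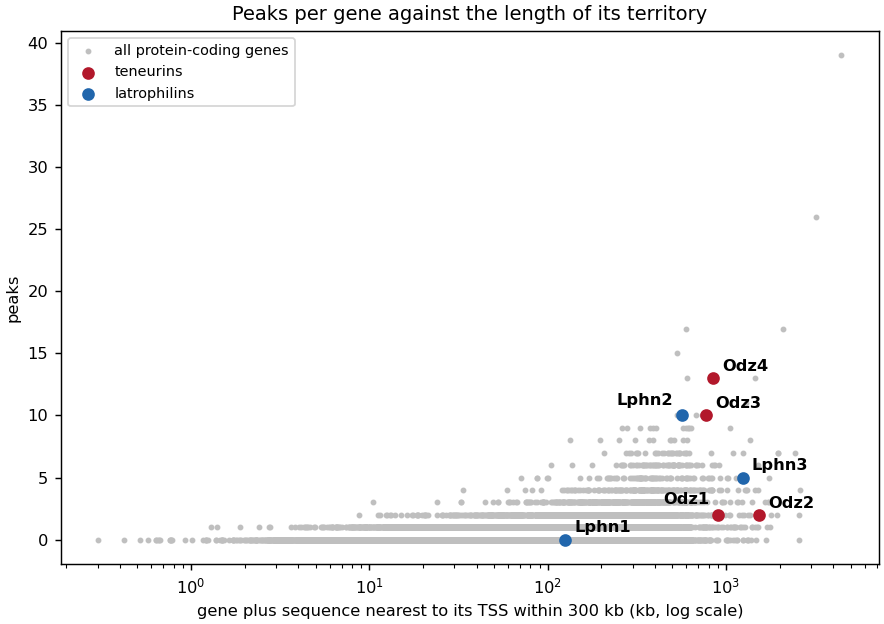
Peaks per gene (vertical axis) against territory length in kb (horizontal log axis) for 22359 protein-coding genes (grey), teneurins (red) and latrophilins (blue). Odz3, Odz4 and Lphn2 lie at 10 to 13 peaks, and Odz1, Odz2 and Lphn1 at 0 to 2.

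Genes whose products bind latrophilins or teneurins, or act with them, had peaks as well. Of 15 binding partners, 10 had at least 1 peak, against 25.4% of all genes. The median territory of the partners was 199 kb, against 52.1 kb over all genes. The part of territory length in this count was not tested. Nrxn3, a neurexin gene, had 7, all inside the gene, with 96, 86, 49, 28, 24, 22 and 20 ChIP tags, and 5 of the 7 had a central forkhead sequence. Flrt3, which encodes a ligand of latrophilins, had 4 peaks with 73, 44, 42 and 21 tags. Those of 44 and 42 tags lay inside the gene, 1.77 and 3.10 kb from its start, and that of 73 tags was 263 kb away and held 3 forkhead sequences. All Flrt3 peaks also lay inside Macrod2, a much longer gene that surrounds Flrt3. Unc5d and Unc5c, genes of receptors for netrins and FLRT proteins, had 2 intragenic peaks each, with 47 and 32 tags and with 22 and 19 tags. Unc5b also had 2 (46 and 16 tags). The partner peaks with the most tags were the single ones of Unc5a (118 tags) and, next to it, Flrt2, which, like Unc5b, were added after their values were seen.

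Of 27 other adhesion-class receptor genes, 14 had a peak (51.9%), against 25.4% of all genes, and none had more than 2. Their median territory was 122 kb. Of the genes with territories within 25% of the 126 kb of Lphn1, 36.2% had at least 1 peak. The peak with the most tags was that of 110 at Cd97, already described as the nearest to Lphn1. Gpr98 had peaks of 56 and 21 tags, Gpr124 of 36 and 34 and Bai1 of 23 and 16. Within the adhesion-class receptors, counts of 5 and 10 peaks were therefore seen at Lphn3 and Lphn2, while Lphn1 had 0. Of the 18 peaks of the other receptors, 6 had a central forkhead sequence, and of the 22 peaks of the binding partners 13 had one, where 40.8% of all peaks and 51.5% of distal peaks did. Several of the receptor peaks lay within 1 kb of a TSS.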

How the data were processed

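Palatal shelves were profiled by anti-FLAG ChIP-seq with 1 ChIP and 1 input library. Build mm9, Bowtie 1.0.0, SAMtools 0.1.19 and HOMER (no version) were named, per the submitters' processing notes. Per the file headers, HOMER findPeaks in histone style stitched 500 bp peaks into regions, kept at most 1 tag per position and required a 10-fold excess over input and over the surrounding 10000 bp. The deposited signal was ChIP tags scaled to 10000000; multiplied back by 26849463 tags, it lay within 0.134 of whole numbers. Other deposited columns gave the fold over input (a ratio), the caller's score and the Poisson p-value against input. Deposited input coverage was in unscaled tags, with 0.5 for none, read as 0 here.

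Peaks were placed by their centre on NCBIM37 (the assembly of mm9) with GENCODE vM1, in Python 3.11.15 with pysam 0.24.0 and scipy 1.17.1. Fold intervals are exact, conditional on ChIP plus input tags. They and the Wilson intervals cover counting error alone, not copying by PCR. Scripts were tested on simulated data. Partner genes were named as the 4 with the most peaks of each list, ties going to the higher summed score, with exceptions given in the text. Members, lists, bins and motifs were chosen with earlier results of these data known. The entry Gpr144 matched no gene name. Some genes are not reported here by name. Alternatives changed the distance limit, the starts used, the score, fold or tag minimum, the window width and the forkhead sequences counted.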

Additional observations from a re-analysis of the deposited data

How the results depend on the processing

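No paired analysis was possible because there was 1 library of each kind. Of 17 alternatives to the main results, 10 stayed within 1.5 times the count or within the interval. The total of 42 peaks was 21 with only the peaks in the upper part of the list by score (split at its middle) and 12 at a fold of at least 15, both of which use fewer peaks. With that upper part, 11 partner and receptor genes had a peak in place of 24, and members had 3.51 peaks per Mb in place of 7.02, against 1.93 and 3.88 over all genes. The share of centres with a forkhead sequence was 28.6% in 100 bp, 76.2% in 500 bp and 30.95% for GTAAACA alone, against 30.5%, 76.7% and 18.9% of distal peaks. Of 56 alternatives to counts of single genes, 35 stayed within 1.5 times. Where the gene itself had to hold the nearest TSS, Odz1 and Odz2 had 0 peaks and Odz4 had 8. With a limit of 100 kb, or only 1 start per gene, Lphn2 had 6, and without a limit Lphn3 had 13 and Odz2 had 4. With the upper part by score, Odz1 and Odz2 had 0, Odz3 and Odz4 had 7 each, Lphn2 had 5 and Lphn3 had 2. In alternatives added after the data were seen, distal member peaks of over 40 tags held a forkhead sequence in 17.6% of cases in 100 bp and 70.6% in 500 bp, against 39.2% and 88.6% of such peaks in the list. With scores in the upper part in place of tags it was 42.1% against 62.7%.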
